A study of Mus musculus with 2 samples.

Results

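Cholesterol synthesis was followed across the cell classes of the mouse spinal cord through 7 of its genes, Hmgcs1, Idi1, Fdps, Fdft1, Sqle, Cyp51 and Dhcr7. They were taken by symbol from the 32285 genes listed in the data, so the members are 7 of 32285 genes, and all of them had UMIs in both libraries. The data are single-cell RNA counts from whole spinal cords of FVB mice at postnatal day 4. A single library was labelled SMA (spinal muscular atrophy, genotype mSmn-/-, hSMN22tg/0) and a single one Con (mSmn+/-, hSMN22tg/0), so that both groups carried the human SMN2 transgene and the Con mice still had an intact mouse Smn allele. Per the study's methods each library was a pool of 3 littermates, SMA stood for the Taiwanese model of severe disease, and the sexes were not stated. With 1 library per group there was no spread between replicates and no test, so every interval given here is a 95% interval for counting error alone.

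There were 26921 barcodes with 85872075 UMIs under the SMA label and 25419 barcodes with 97894084 UMIs under the Con label. A UMI (unique molecular identifier) marks 1 captured RNA molecule. A set of 8163 barcodes occurred in both libraries. The copies labelled SMA were left out of all values below, except where they are named or said to be kept. After the limits on genes and mitochondrial RNA, 6787 SMA cells (median 6109 UMIs) and 8919 Con cells (median 6229 UMIs) remained. Cells were grouped into classes from marker genes, with the 7 genes kept out of the grouping, and the 11 classes with 50 or more cells on both sides were compared. The deleted mouse gene could not check the labels, since Smn1 stood at 51.8 UMIs per 1000000 UMIs (CPM) in SMA and 50.6 in Con. Xist stood at 1.66 CPM in SMA and 611 in Con, so that Xist differed between the pools along with the genotype, and the effects of sex and of genotype cannot be told apart here. The copied barcodes labelled SMA carried Xist at 697 CPM in the class like oligodendrocyte precursors, against 1.69 in the other SMA cells of that class, in a grouping that kept them.

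Cells make cholesterol from acetyl-CoA through the mevalonate pathway. Sterol-depleted cells release the transcription factor SREBP2 from the endoplasmic reticulum, where SCAP and the INSIG proteins otherwise hold it, and SREBP2 raises transcription of nearly every enzyme of the pathway. In the nervous system the blood supplies almost no cholesterol, so that glia make their own, with the heaviest demand in cells that build myelin and with astrocytes handing cholesterol to other cells on apolipoprotein E. The 7 enzymes lie along the whole route. Hmgcs1 makes HMG-CoA, Idi1 isomerises isopentenyl diphosphate, Fdps makes farnesyl diphosphate, Fdft1 joins farnesyl units into squalene, Sqle oxidises squalene, Cyp51 removes a methyl group from lanosterol, and Dhcr7 carries out a final reduction.

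On GRCm38 the 7 protein-coding genes lie apart from each other. Hmgcs1 spans chr13:119690379-119708260 and Idi1 spans chr13:8885501-8892451, both on the plus strand. Fdps lies at chr3:89093588-89101959 (minus strand), Fdft1 at chr14:63145150-63179578 (minus), Sqle at chr15:59315077-59331192 (plus), Cyp51 at chr5:4081145-4104746 (minus) and Dhcr7 at chr7:143823145-143848410 (plus). RefSeq (GRCm38.p6) gave a promoter for 4 of the 7, namely Hmgcs1, Idi1, Cyp51 and Dhcr7. For Dhcr7, with 3 listed starts, the one nearest to the principal transcript was taken. The 250 bases before each RefSeq start are shown for these 4 genes, the only members with a listed promoter. That start lay 95 bases from a start of the principal transcript for Hmgcs1, 105 for Idi1, 49 for Cyp51 and 0 for Dhcr7. The windows of Idi1, Cyp51 and Dhcr7 reach into the gene spans given above. Capitals mark a sterol regulatory element, spelled TCACNCCAC, and CCAAT boxes, spelled CCAAT, on either strand.
Hmgcs1 (chr13:119690101-119690350, plus): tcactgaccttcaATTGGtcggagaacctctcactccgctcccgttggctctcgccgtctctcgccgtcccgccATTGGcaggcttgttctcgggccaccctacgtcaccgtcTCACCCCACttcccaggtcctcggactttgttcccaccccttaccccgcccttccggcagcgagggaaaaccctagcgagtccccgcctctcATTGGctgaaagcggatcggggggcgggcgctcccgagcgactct
Idi1 (chr13:8885356-8885605, plus): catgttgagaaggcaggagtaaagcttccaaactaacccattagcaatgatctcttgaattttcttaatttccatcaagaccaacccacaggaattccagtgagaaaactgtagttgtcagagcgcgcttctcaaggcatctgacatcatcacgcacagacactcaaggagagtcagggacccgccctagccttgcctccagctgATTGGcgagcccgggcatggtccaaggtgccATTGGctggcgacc
Cyp51 (chr5:4104698-4104947, minus): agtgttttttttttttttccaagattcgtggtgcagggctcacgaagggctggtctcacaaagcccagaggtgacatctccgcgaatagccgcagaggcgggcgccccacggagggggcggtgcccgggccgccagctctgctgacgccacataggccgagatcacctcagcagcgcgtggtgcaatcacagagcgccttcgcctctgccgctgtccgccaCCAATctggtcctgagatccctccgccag
Dhcr7 (chr7:143822917-143823166, plus): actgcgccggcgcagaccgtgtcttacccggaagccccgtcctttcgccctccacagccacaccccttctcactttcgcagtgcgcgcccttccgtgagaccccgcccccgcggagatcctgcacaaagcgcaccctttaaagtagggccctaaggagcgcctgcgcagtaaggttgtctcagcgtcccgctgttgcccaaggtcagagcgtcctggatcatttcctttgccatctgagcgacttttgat
The sterol element occurred once, 137 bases before the Hmgcs1 start, and in 1.04% of 32536 promoters of the same length. CCAAT boxes numbered 3 in Hmgcs1, 2 in Idi1, 1 in Cyp51 and 0 in this Dhcr7 window, and 33.8% of all promoters held at least 1. A GC box, spelled GGGCGG and not in capitals, was present in all 4 windows and in 33.0% of promoters. Such matches describe letters and are not measured binding.

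By class, the summed level of the enzymes was highest in the myelin-forming classes. In Con, the summed level of the 7 genes was 3714 CPM in oligodendrocyte-like cells, 2976 in Schwann cell-like cells, 2799 in cells like committed oligodendrocyte precursors (COP), 2531 in astrocyte-like cells and 2378 in cells like oligodendrocyte precursors (OPC). It then dropped to 718 CPM in ependymal-like, 605 in mural-like, 428 in endothelial-like, 399 in fibroblast-like and 293 in microglia-like cells. Erythroid-like cells gave 94.3 CPM. Haemoglobin RNA made up 898588 CPM in SMA and 899870 in Con of this class. The CPM of its other genes is lowered by that, so the value marks no background for other classes. The same 5 classes led in SMA, at 4495, 2500, 2203, 1944 and 2327 CPM in the order just given, with 587 in ependymal-like, 552 in mural-like, 397 in endothelial-like, 366 in fibroblast-like, 263 in microglia-like and 59.0 CPM in erythroid-like cells. Neuron-like cells were too few to compare (40 SMA and 26 Con cells) but lay near the glial group, at 1746 and 1938 CPM. The lead of the oligodendrocyte-like class rested on a deep cluster of 107 SMA and 196 Con cells (5950 and 4951 CPM). Its other cluster, of 234 and 611 cells, held 1698 and 1982 CPM, below the OPC-like class in each library.

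**Figure D1:**
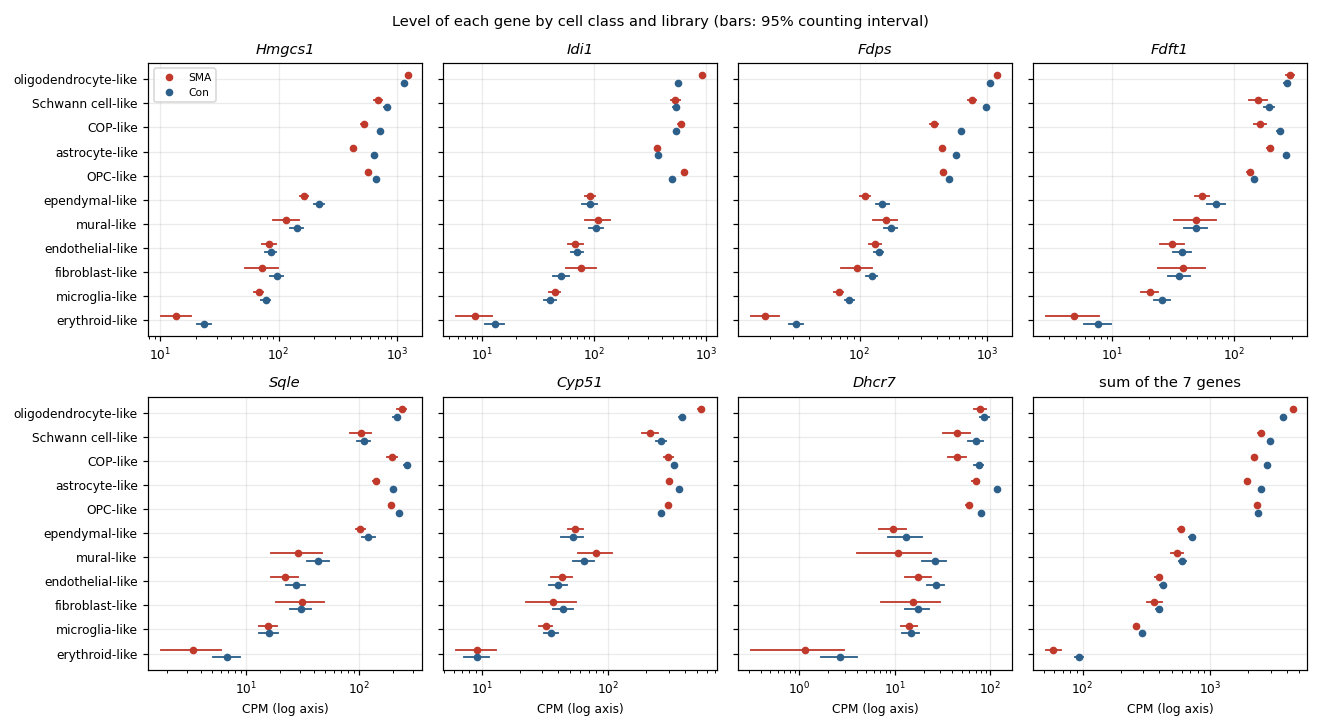
Level in CPM (log axis) of each of the 7 genes and of their sum in 11 cell classes, ordered by the sum in Con, with SMA in red and Con in blue and 95% counting intervals as bars. Oligodendrocyte-like, Schwann cell-like, COP-like, astrocyte-like and OPC-like cells stand above the other classes for every gene apart from Sqle, for which Schwann cell-like cells lie beside ependymal-like cells (110 and 121 CPM in Con).

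Each enzyme had its own order among these 5 classes. Hmgcs1 was highest in oligodendrocyte-like cells, at 1235 CPM in SMA and 1146 in Con, followed by Schwann cell-like cells at 694 and 826 CPM, with counting intervals apart. Fdps ran nearly level in both myelin-forming classes of Con, at 1048 CPM in oligodendrocyte-like and 981 in Schwann cell-like cells, and these intervals overlapped. Idi1 in Con was equally flat across oligodendrocyte-like (562 CPM), Schwann cell-like (534) and COP-like cells (534), again with overlapping intervals. In SMA the order of Idi1 had a clear leader, with 918 CPM in oligodendrocyte-like and 630 in OPC-like cells.

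Cyp51 in Con was at 384 CPM in oligodendrocyte-like and 360 in astrocyte-like cells with overlapping intervals, and in SMA at 542 and 300 CPM with intervals apart. Fdft1 gave 272 CPM in oligodendrocyte-like and 269 in astrocyte-like cells of Con, which overlapped, and 291 and 197 CPM in SMA, which did not. Sqle, which oxidises squalene, had different leaders in the libraries. In Con it was highest in COP-like cells (265 CPM against 216 in oligodendrocyte-like cells), and in SMA in oligodendrocyte-like cells (239 CPM against 196 in COP-like cells), with intervals apart in both. Schwann cell-like cells held less Sqle than astrocyte-like cells in both libraries, at 104 against 142 CPM in SMA and 110 against 202 in Con. In Con, Dhcr7 was the only member led by astrocyte-like cells, at 117 CPM against 86.3 in oligodendrocyte-like cells. In SMA the order of Dhcr7 turned, with 77.9 CPM in oligodendrocyte-like and 70.3 in astrocyte-like cells and overlapping intervals.

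Shares of cells with a UMI were compared at one depth, and they did not follow the levels in every class. After every cell was thinned to 1000 UMIs, 84.7% of OPC-like SMA cells (95% interval 83.0 to 86.2) and 86.9% of OPC-like Con cells (85.3 to 88.5) held at least 1 UMI of any of the 7 genes. In astrocyte-like cells the shares were 78.3% (75.9 to 80.5) and 88.0% (86.3 to 89.6), which do not overlap. In Schwann cell-like cells, which were second by level, the shares were only 67.4% in SMA (56.8 to 76.8) and 62.1% in Con (55.2 to 68.7), below those of the astrocyte-like class and not lower in SMA. Erythroid-like cells, whose UMIs were mostly haemoglobin, gave 7.2% and 9.28%. Before thinning the astrocyte-like shares were 99.1% and 99.9%, and the erythroid-like ones 35.4% and 47.0%. For Idi1 alone the thinned share in OPC-like cells was higher in SMA (44.0%, 41.8 to 46.1) than in Con (35.8%, 33.6 to 38.1), while Hmgcs1 was found in fewer SMA cells (41.7%, 39.5 to 43.9) than Con cells (47.9%, 45.5 to 50.3). In COP-like cells, where the level of Hmgcs1 was lower in SMA, its shares were 45.9% (39.5 to 52.4) and 45.4% (41.3 to 49.6), a difference within counting error.

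Across classes the members rose and fell in level together. Between pairs of members, Pearson's r over 20 class and library points, on log2(CPM + 1) and without the erythroid-like class, ran from 0.78 for Dhcr7 with Sqle to 0.98 for Cyp51 with Idi1. Of 12888 other genes ranked by r with the mean of the 7 over 22 points, those with the highest values included Msmo1 (r = 0.99), Acat2 (0.98), Nsdhl (0.97) and Mvd (0.97), which are all enzymes of the pathway outside the 7. Tnik, Chadl, Hsd17b7 and Tmem63b were also among the first 10, each at 0.96, of which Hsd17b7 is again an enzyme of the route. Without the erythroid-like class Msmo1 still had the highest value (0.98). Srebf2, which encodes SREBP2, had r = 0.92 and Insig1 had r = 0.95, while Srebf1, whose product acts mainly on fatty acid genes, had r = 0.40, and -0.02 without the erythroid-like class. The points share 2 libraries and the same cell classes, so these values describe likeness in where the genes are found.

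SMA was compared with Con by cell type to ask where the mutant cord differs. The summed level of the 7 genes was lower in SMA in 10 of 11 classes, in 7 of them with a counting interval off 0, and higher in the oligodendrocyte-like class alone, where the direction turned with the cell filters. In astrocyte-like cells the sum was 1944 CPM in SMA and 2531 in Con (log2 ratio -0.38, interval -0.41 to -0.35), and all 7 members were lower, against 60.6% of all genes in that class. In COP-like cells it was 2203 and 2799 CPM (-0.35, -0.40 to -0.30), with 6 of 7 members and 45.3% of genes lower. Some stage markers also differed between the libraries in this class, as given below. Across all genes, 6.46% of 8590 were lower in at least 10 of 11 classes and 2.04% were lower in all 11. Centring each class on its median gene, which lay between -0.06 and 0.05, left the sum lower in 10 of 11 classes. The sum was lower in 9 of 11 in cells with at least 5000 UMIs, in 8 with equal weight per cell, where the Schwann cell-like ratio turned to 0.05, and in 7 with the copied barcodes kept.

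**Figure D2:**
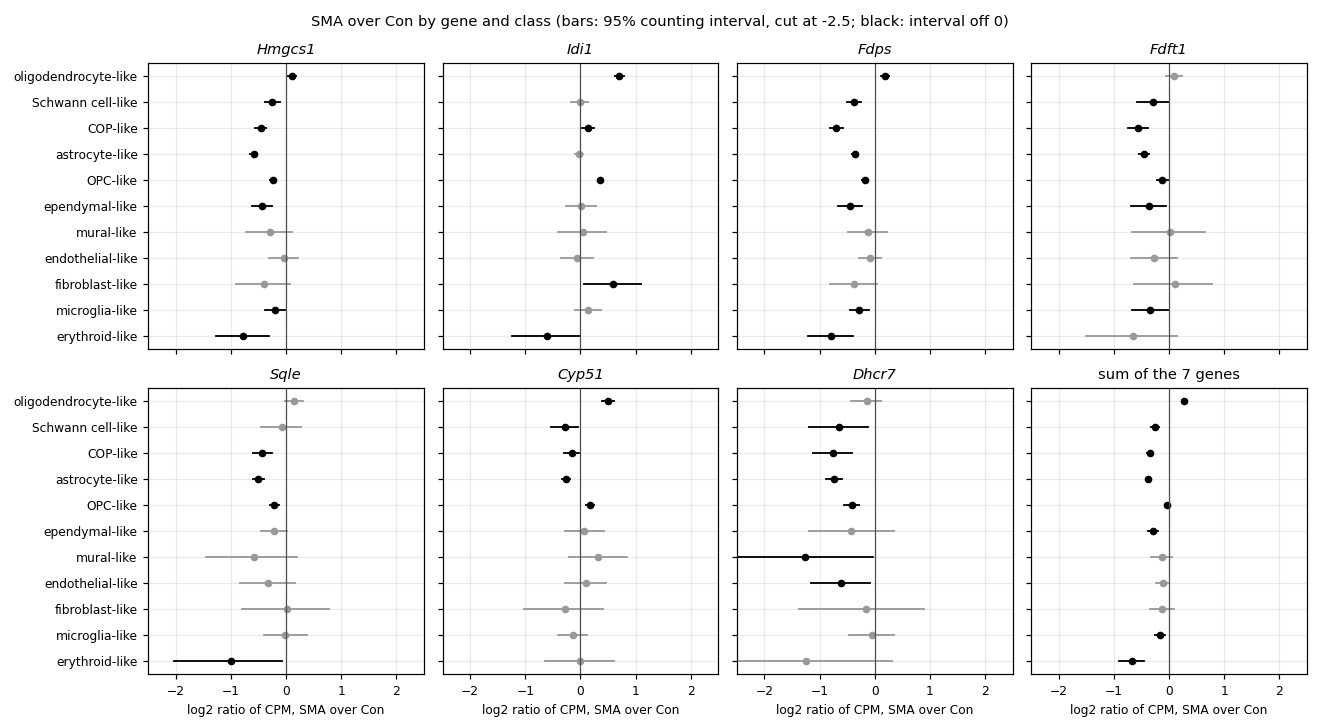
Log2 ratio of CPM, SMA over Con, for each gene and for the sum in 11 classes, with 95% counting intervals (black where the interval is off 0). Idi1 lies above 0 in 7 of 11 classes (0.36 in OPC-like cells), while Hmgcs1, Fdps and Dhcr7 lie mostly below it.

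The first enzyme, Hmgcs1, was lower in 10 of 11 classes. Astrocyte-like cells held 427 CPM in SMA and 643 in Con (log2 ratio -0.59, interval -0.65 to -0.53), COP-like cells 529 and 729 CPM (-0.46), OPC-like cells 566 and 669 (-0.24) and ependymal-like cells 163 and 221 (-0.43). Fdps, which supplies farnesyl groups to protein prenylation as well as to sterols, was also lower in 10 classes, and in 7 with the copied barcodes kept. Its largest difference in a neural class was in COP-like cells, at 384 CPM in SMA and 622 in Con (-0.70, -0.81 to -0.58), against -0.35 in astrocyte-like and -0.17 in OPC-like cells.

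Both enzymes around squalene were also lower in most classes. Fdft1 was lower in 8 of 11 classes, with 197 CPM in SMA and 269 in Con in astrocyte-like cells (-0.45, -0.54 to -0.36) and 164 and 241 in COP-like cells (-0.56). Sqle was lower in 9 of 11 classes, with 142 and 202 CPM in astrocyte-like cells (-0.50, -0.61 to -0.40) and 196 and 265 in COP-like cells (-0.43). Dhcr7, mutated in people with Smith-Lemli-Opitz syndrome, was lower in all 11 classes, and in 6 of them the interval was off 0. It was lower in 8 of 11 with the copied barcodes kept, in 9 without the upper limit on genes and in 10 at resolution 0.5, at resolution 2 and with equal weight per cell. It stood at 70.3 CPM in SMA and 117 in Con in astrocyte-like cells (-0.74, -0.88 to -0.60), at 44.8 and 75.6 in COP-like cells (-0.75) and at 60.3 and 80.7 in OPC-like cells (-0.42).

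Idi1 and Cyp51 did not follow. Idi1 was higher in SMA in 7 of 11 classes. It stood at 630 CPM in SMA and 490 in Con in OPC-like cells (log2 ratio 0.36, interval 0.31 to 0.41) and at 587 and 534 CPM in COP-like cells (0.14, 0.03 to 0.24). In astrocyte-like cells, where the other 6 were lower, Idi1 gave 363 and 371 CPM (-0.03, -0.10 to 0.04), a difference not detectable at this depth. Cyp51 was lower in 6 classes and higher in 5, with 294 CPM in SMA and 262 in Con in OPC-like cells (0.17, 0.09 to 0.24) and 300 and 360 in astrocyte-like cells (-0.26, -0.34 to -0.19). Opposite members therefore nearly cancelled in OPC-like cells, whose sum was 2327 and 2378 CPM (-0.03, -0.06 to -0.01).

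Few members passed a 1.5-fold limit, set for genes with at least 100 UMIs over both libraries. Lower in SMA were Hmgcs1 and Dhcr7 in astrocyte-like cells, where 2.99% of all genes passed in that direction, and Fdps and Dhcr7 in COP-like cells (2.05%). Dhcr7 also passed in Schwann cell-like cells (4.94% of genes) and endothelial-like cells (4.8%). Of these 6 calls only that of Dhcr7 in astrocyte-like cells held under each setting run (-0.76 to -0.62). The others fell short of the limit under at least 1 setting, with the weakest values at -0.47 for Hmgcs1 in astrocyte-like cells, -0.33 for Fdps and -0.44 for Dhcr7 in COP-like cells (all 3 with the copied barcodes kept), -0.32 for Dhcr7 in Schwann cell-like cells (equal weight per cell) and -0.56 in endothelial-like cells (mitochondrial limit of 20%). Higher in SMA was Idi1 in oligodendrocyte-like cells (6.3%), at a log2 ratio of 0.71, which fell short of the limit at 0.19 with a mitochondrial limit of 20%, 0.12 without the upper limit on genes, 0.15 with the copied barcodes kept, 0.55 at resolution 2 and 0.52 with equal weight per cell. Idi1 in fibroblast-like cells passed too, at 76.4 and 50.6 CPM, but 13.6% of genes passed upward there, and 1 of the fibroblast-like clusters had 431 Con cells and 0 SMA cells. In the fibroblast-like cluster with cells of both libraries Idi1 had a log2 ratio of -0.07 and the sum -0.62. No member passed in OPC-like (3.43% of genes in either direction), ependymal-like (4.48%), microglia-like (4.82%) or mural-like cells (11.6%). In erythroid-like cells 3 members passed downward (7.69% of genes), and the sum was 59.0 CPM in SMA and 94.3 in Con (-0.68). With the copied barcodes kept, this ratio turned to 0.05. Haemoglobin RNA in OPC-like cells was 22387 CPM in SMA and 47347 in Con, and the part of such free RNA in the ratios was not tested. Totals without haemoglobin and mitochondrial genes left the sum lower in 10 of 11 classes.

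Set against each other within the same cells, the 7 enzymes shifted in proportion. The share of 1 member among the UMIs of all 7 needs no library total. Idi1 made up 27.1% of these UMIs in OPC-like SMA cells and 20.6% in OPC-like Con cells, a log2 ratio of Idi1 over the other 6 of 0.52 (interval 0.46 to 0.57) for SMA relative to Con. It was 26.6% and 19.1% in COP-like cells (0.62, 0.51 to 0.74), 18.7% and 14.7% in astrocyte-like cells (0.42, 0.35 to 0.50), 20.4% and 15.1% in oligodendrocyte-like cells (0.53, 0.43 to 0.62) and 16.7% and 13.7% in microglia-like cells (0.34, 0.09 to 0.59). The ratio was above 0 in all 11 classes, 8 with an interval off 0, and in all 23 clusters that had at least 50 cells in each library. Of all genes, 5.23% had a ratio above that of the 7 genes together in all 11 classes, and 2.69% in all 23 clusters. These shares are against all 7 genes, while Idi1 was set against the other 6, so the measures differ.

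Cyp51 shifted the same way in 9 of 11 classes (0.22 in OPC-like, 0.22 in COP-like and 0.14 in astrocyte-like cells). Hmgcs1 shifted the other way in 10 of 11 classes, from 28.1% of the UMIs in Con to 24.3% in SMA in OPC-like cells (-0.28, -0.34 to -0.23) and with the same log2 ratio in astrocyte-like cells (-0.28, -0.34 to -0.21). Dhcr7 was lower relative to the rest in 10 of 11 classes as well. The interval was off 0 in 4 classes for Hmgcs1 and in 4 for Dhcr7. Those of Dhcr7 were OPC-like (-0.40), COP-like (-0.42), astrocyte-like (-0.38) and oligodendrocyte-like cells (-0.43). Of all genes, 0.489% had a ratio below that of the 7 together in at least 10 of 11 classes, but that sum was itself lower in 10 of 11. Members are parts of the sum, so some must lie below it and some above. The share over all genes is therefore no like measure for them. Fdps, Fdft1 and Sqle had no interval above 0 in any class and 2 to 4 below it. The ratio of Idi1 over the other 6 stayed above 0 in all 11 classes under each of the other settings of filters, clustering and weighting. In the grouping that kept the copied barcodes, Idi1 took 20.3% of the 7-gene UMIs in OPC-like copies labelled SMA, close to the 20.5% of Con cells and away from the 26.9% of the other SMA cells.

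**Figure D3:**
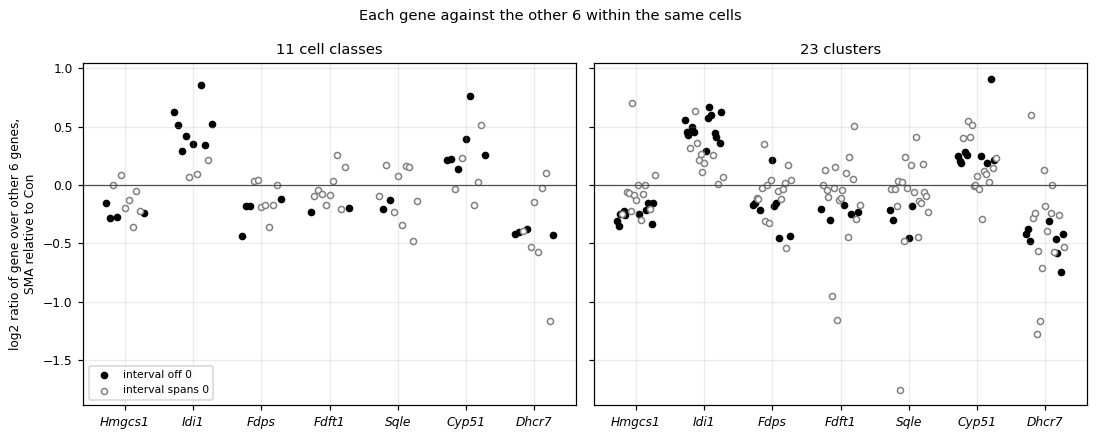
Log2 ratio of each gene over the other 6 genes, SMA relative to Con, with 1 point for each of 11 classes (left) and 23 clusters (right), filled where the 95% counting interval is off 0. All Idi1 points lie above 0, and most Hmgcs1 and Dhcr7 points lie below it.

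Within the oligodendrocyte lineage the genes were highest in 1 of the clusters with the most Mbp, the RNA of myelin basic protein. The largest OPC-like cluster, with Pdgfra at 469 CPM in SMA and 415 in Con, held 2473 and 2565 CPM of the 7 genes. Both clusters led by replication genes were alike, at 2440 and 2418 CPM in the one led by Ung and Mcm6 and 2365 and 2598 in the one led by histone genes, while the cluster led by mitotic genes such as Cenpa was lower, at 1584 and 1596 CPM. That cluster also carried more microglial RNA than the largest one, with P2ry12 at 64.4 CPM in SMA and 69.2 in Con against 5.66 and 10.3 and Cx3cr1 at 74.3 and 52.9 against 5.98 and 3.49, and had less Pdgfra (360 and 241 CPM). The part of this RNA in its lower level was not tested. COP-like cells, which turn on Gpr17 and Enpp6, held 2203 and 2799 CPM. Mbp (3113 CPM in SMA, 4775 in Con), Enpp6 (334 and 464), Mog (10.9 and 31.8) and Aqp4 (19.8 and 39.9) were lower there in SMA. Gpr17 (1147 and 1073) and Pdgfra (7.81 and 5.91) were not. The part of stage or of RNA of other cells in the COP-like difference was not tested. The deep oligodendrocyte-like cluster, with Mbp at 20975 CPM in SMA and 20748 in Con and a median of 12564 UMIs, held 5950 and 4951 CPM, above every OPC-like cluster. A second oligodendrocyte-like cluster of low depth (median 1913 UMIs), with Mbp at 4951 and 6795 CPM, held 1698 and 1982 CPM. Each of the 7 genes was higher in the deep than in the low-depth cluster in both libraries, from 1.76-fold for Dhcr7 in Con to 4.21-fold for Sqle in SMA. RNA of other cells moved with this difference, since the low-depth cluster had the astrocyte gene Aqp4 at 269 CPM in SMA and 489 in Con against 10.5 and 28.5 in the deep cluster, and Pdgfra at 80.8 and 37.0 against 2.10 and 7.96. Its part in the difference was not tested.

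**Figure D4:**
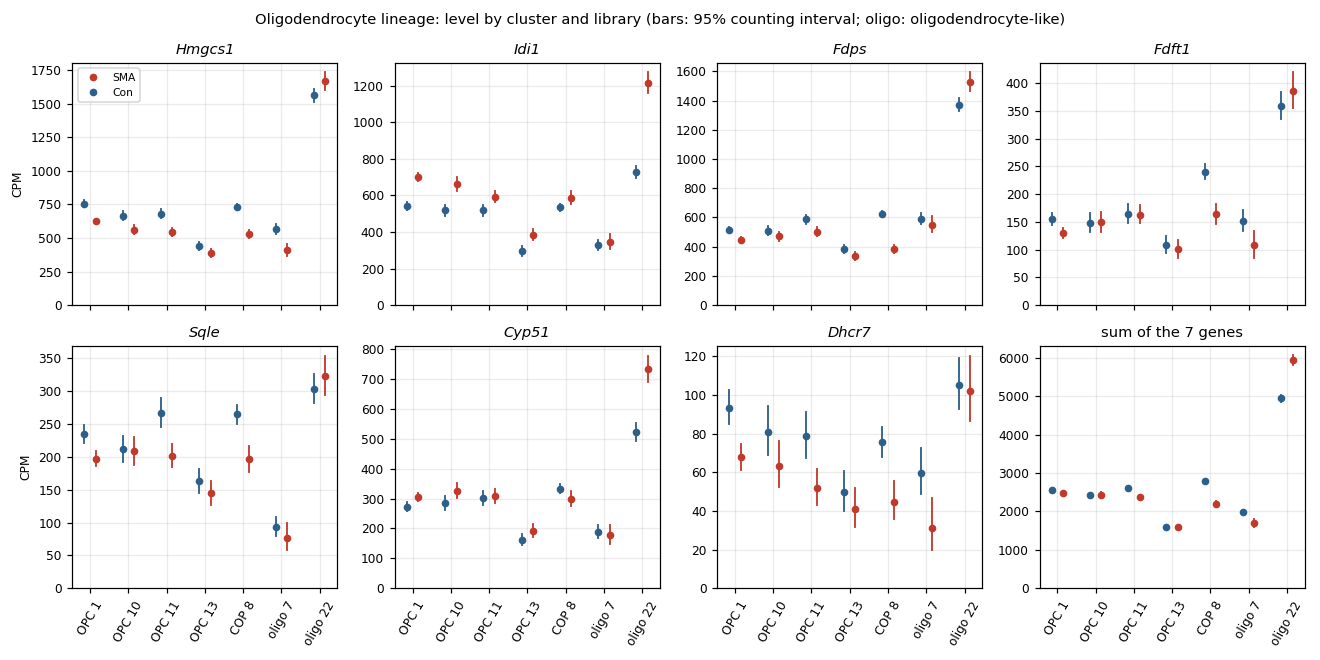
Level in CPM of each gene and of the sum in 7 clusters of the oligodendrocyte lineage, SMA in red and Con in blue, with 95% counting intervals. All genes are highest in the deep oligodendrocyte-like cluster (oligo 22), where Idi1 is at 1215 CPM in SMA and 728 in Con, and COP-like cells show the lower SMA values of Fdps and Fdft1.

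The single rise of the sum in SMA, in oligodendrocyte-like cells, depended on the cell filters and on how these cells were divided. Over the class the sum was 4495 CPM in SMA and 3714 in Con (0.28, 0.24 to 0.31), Idi1 918 and 562 (0.71, 0.62 to 0.80), Cyp51 542 and 384 (0.50) and Hmgcs1 1235 and 1146 (0.11). In the deep cluster alone (107 SMA and 196 Con cells) the sum differed by 0.27, and in the low-depth cluster alone (234 and 611 cells) by -0.22, with Idi1 at 0.07 (-0.15 to 0.29) in the latter. Over the whole class the sum was -0.15 with a mitochondrial limit of 20% and -0.21 without the upper limit of 4000 genes per cell. With clustering at resolution 2, the sum was lower in SMA in each of 3 oligodendrocyte-like clusters (-0.30, -0.60 and -0.18), although over the class it was higher by 0.23. In 1 of those clusters Idi1 was lower too (-0.40, -0.70 to -0.09). Without the upper limit on genes, a deep cluster of 139 SMA and 181 Con cells, most of them over that limit, held 6563 and 8074 CPM (-0.30, -0.32 to -0.27), and Idi1 differed there by 0.03 (-0.03 to 0.09). The mature marker Mog stood at 1241 CPM in SMA and 502 in Con in the deep cluster and Enpp6, of newly formed cells, at 567 and 957 CPM. Mbp was nearly equal there, at 20975 and 20748 CPM. Whether the mix of stages differed, and its part in the ratio, was not tested. The higher share of Idi1 among the 7 genes held in both oligodendrocyte-like clusters.

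In astrocyte-like cells the lower level held across clusters. All 5 of their clusters had a lower sum in SMA. The cluster led by Gfap held 1532 CPM in SMA and 2425 in Con (-0.66, -0.73 to -0.59) and the one led by Gbx2 and Pax3 held 1982 and 2778 (-0.49), against 2193 and 2583 (-0.24) in the one led by Slc7a10 and Agt. In the Gfap cluster every member was lower, from -0.28 for Idi1 to -0.94 for Fdft1. Dhcr7 was lower by 0.54 or more on the log2 scale in each of the 5 clusters.

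Among microglia-like cells 1 cluster stood apart. It was led by Mlxipl and Lag3 and held 775 CPM of the 7 genes in SMA and 829 in Con, against 175 and 197 CPM in the main cluster. It had 121 SMA and 104 Con cells, and all 7 genes were higher there than in the main cluster in both libraries, for example Idi1 at 163 and 124 CPM against 23.2 and 24.4. Its cells were also deeper, with a median of 9907 UMIs against 6683. The part of depth or of doublets was not tested. The difference between clusters was therefore far above that between libraries, which was -0.10 with an interval of -0.24 to 0.04.

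Cells called cycling held less of these RNAs than other cells in the OPC-like and astrocyte-like classes, but more in microglia-like cells of Con. In OPC-like cells, 600 SMA and 556 Con cells were called cycling from 26 cycle genes at equal depth. Their summed level was below that of other cells by a log2 ratio of -0.17 (interval -0.21 to -0.13) in SMA and -0.04 (-0.08 to -0.01) in Con. By cluster this was not so throughout, since both OPC-like clusters led by replication genes were near the largest cluster and the mitotic one, which carried the microglial RNA given above, was lower. Hmgcs1 (-0.27 and -0.17) and Idi1 (-0.33 and -0.16) were lower in cycling cells of both libraries, while Fdps was higher by 0.15 in Con (0.07 to 0.23). Cycling astrocyte-like cells showed a like difference, at -0.28 in SMA and -0.22 in Con, led by Idi1 (-0.60 and -0.43). In microglia-like cells 149 SMA and 69 Con cells were called cycling. Their summed ratio was -0.10 (-0.28 to 0.08) in SMA and 0.30 (0.08 to 0.52) in Con. The same call marked 3.20% and 4.98% of erythroid-like cells.

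The other 14 enzymes of the pathway leaned the same way as the sum of the 7 in astrocyte-like, COP-like and oligodendrocyte-like cells, but not in every class. In astrocyte-like cells 12 of 14 were lower in SMA (median log2 ratio -0.19, against -0.06 over all genes, 60.6% of which were lower). In COP-like cells 11 of 14 were lower (median -0.26 against 0.03, with 45.3% of all genes lower), and 4 passed 1.5-fold downward (2.05% of all genes), led by Lss, which turns oxidised squalene into lanosterol (25.5 CPM in SMA, 47.3 in Con, -0.89), Mvd, which makes isopentenyl diphosphate (62.0 and 109 CPM, -0.82), and Nsdhl, an enzyme of sterol demethylation (59.4 and 102 CPM, -0.78). In OPC-like cells 8 were lower and 6 higher (median -0.03), with 47.2% of all genes lower. In oligodendrocyte-like cells all 14 were higher (median 0.38 against 0.03, with 54.0% of genes higher), and 4 passed 1.5-fold upward (6.3% of all genes), among them Lbr (0.80) and Hsd17b7 (0.66), under the same limits on that class as above. Of enzymes with at least 100 UMIs, 7 of 12 were lower in Schwann cell-like cells (median -0.14, with 46.5% of all genes lower). The count was 7 of 11 in endothelial-like cells (median -0.10, with 49.2%) and 8 of 12 in microglia-like cells (median -0.12, with 42.7%). In fibroblast-like, mural-like and ependymal-like cells the list did not follow the lower sum. Of the enzymes with at least 100 UMIs, 5 of 6 were higher in fibroblast-like cells (median 0.43, with 48.7% of all genes higher), 4 of 5 in mural-like cells (median 0.02, with 46.4%), and 5 of 10 were lower in ependymal-like cells (median -0.02, with 56.6% of all genes lower).

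**Figure D5:**
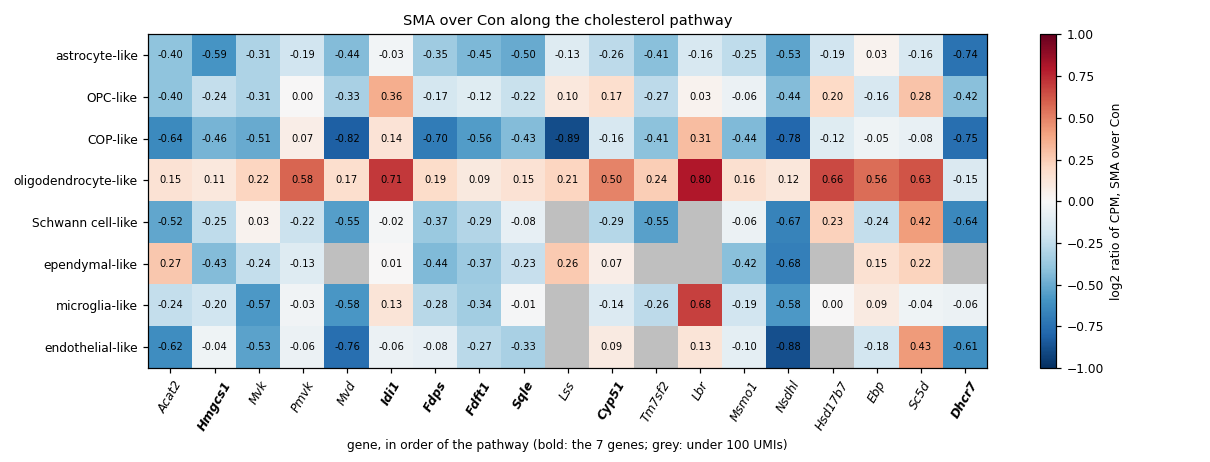
Log2 ratio of CPM, SMA over Con, for genes of the cholesterol pathway in its order (the 7 in bold) in 8 cell classes, with grey cells where a gene had under 100 UMIs. Nsdhl and Mvd, like Dhcr7, are below 0 in most classes, while Idi1 is above 0 in OPC-like, COP-like and oligodendrocyte-like cells.

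Beside the pathway, of 9 regulators measured in astrocyte-like cells 8 were lower (median -0.21), in a class where 60.6% of all genes were lower. In OPC-like cells 5 of 9 were lower and 4 higher, against 47.2% of genes lower. Of the fatty acid list, 10 of 10 measured genes were lower in COP-like cells (median -0.10, 2 with an interval off 0, against 45.3% of genes lower) and 10 of 11 in astrocyte-like cells (median -0.29, against 60.6% of genes), with the desaturase Scd1 at 55.2 and 98.3 CPM (-0.83). The 1 that was higher there, Acsl3, an acyl-CoA synthetase named after its values were seen, stood at 273 CPM in SMA and 193 in Con (0.50, 0.42 to 0.59). The list went the other way in microglia-like cells, where 8 of 9 were higher (median 0.09, against 57.3% of all genes). Of transport and turnover genes, 6 of 9 were lower in astrocyte-like cells, near the share over all genes. In OPC-like cells 8 of 10 were higher, 2 of them with an interval off 0, against 52.8% of all genes. Lcat, which esterifies cholesterol on lipoproteins, was at 56.8 CPM in SMA and 105 in Con in astrocyte-like cells (-0.89, -1.05 to -0.73), and Npc2, a lysosomal cholesterol carrier, at 726 and 466 CPM in oligodendrocyte-like cells (0.64).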

How the data were processed

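Single-cell RNA was counted in 1 library of SMA and 1 of Con spinal cord. The deposited values are raw UMI counts per gene and barcode, which the authors made with Cell Ranger (4.0.0 per the file headers, while the study's methods name an earlier version) on mm10, and no value had been scaled. Cells with 200 to 4000 genes and under 10% mitochondrial RNA were kept, and a cluster with over 30% ribosomal-protein RNA was left out (1337 Con cells, 0 SMA cells). The upper limit on genes was the only treatment of doublets. Counts were scaled to 10000 per cell, and 2000 variable genes, 30 components and 20 neighbours gave Louvain clusters at resolution 1, named "-like" by markers (at least 3 detected), with the members, the listed genes and Smn1, Xist, Y-linked, mitochondrial and ribosomal genes kept out. Of the kept cells 2.30% of SMA and 3.23% of Con stayed unnamed. UMIs were then summed per class and library and given as CPM. Sums have exact Poisson intervals, shares Clopper-Pearson intervals, ratios exact conditional binomial intervals, and ratios of 1 gene over the other 6 normal intervals on the log scale. UMI totals set the precision, and no interval covers differences between animals.

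Named genes were the 7 members everywhere, of each list at most 3 highest and 3 lowest ratios per class among genes with at least 100 UMIs past 1.5-fold, and the 10 genes most alike in level over classes. Some genes that these rules name are not reported here, though counts over lists include them. The members and lists were chosen with earlier results of these data known. Scripts were tested on simulated counts. Positions came from GENCODE M21 (GRCm38), which matched 32235 of 32285 identifiers. Python 3.11.15, numpy 2.4.6, scipy 1.17.1, pandas 2.3.3, scikit-learn 1.9.0 and python-igraph 0.11.9 were used.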

Additional observations from a re-analysis of the deposited data

Results flagged for a closer look

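In 1 library each, the ratio of SMA over Con had a counting interval above 0 in one class and below 0 in another for the sum of the 7 genes and for 4 members, and the difference between classes was not tested. The sum had a log2 ratio of 0.28 in oligodendrocyte-like cells and -0.68 in erythroid-like cells. Hmgcs1 had 0.11 and -0.78, Idi1 0.71 and -0.60 and Fdps 0.19 and -0.79 in the same pair of classes. Cyp51 had 0.50 in oligodendrocyte-like and -0.29 in Schwann cell-like cells. Some of these values turned under other settings, with the copied barcodes kept to 0.05 for the sum and 0.36 for Idi1 in erythroid-like cells, and without the upper limit on genes to -0.31 for Hmgcs1, -0.33 for Fdps, -0.15 for Cyp51 and -0.21 for the sum in oligodendrocyte-like cells. The Schwann cell-like Cyp51 ratio turned to 0.04 with equal weight per cell. The erythroid-like values rest on 207 SMA and 772 Con UMIs of the 7 genes.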

How the results depend on the processing

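With 1 library per group, counting error is the only error known, and low counts limit Dhcr7 most (4 SMA UMIs in erythroid-like and 6 in mural-like cells). No paired analysis was possible because each group had 1 library and the labels carry no replicate numbers. Of 77 member ratios, 75 kept within their interval when only cells with at least 5000 UMIs were used, 65 without the upper limit on genes and 59 with the copied barcodes kept. Causes of the changes were not tested, apart from what a setting itself leaves out.

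For the summed log2 ratio, with copied barcodes kept the values were -0.22 in COP-like, -0.089 in Schwann cell-like, -0.29 in astrocyte-like, 0.037 in endothelial-like, 0.049 in erythroid-like, 0.19 in fibroblast-like, -0.024 in microglia-like and 0.14 in oligodendrocyte-like cells, lower in 7 of 11 classes. Idi1 was then 0.36 and Sqle 0.20 in erythroid-like cells. A mitochondrial limit of 20% gave -0.44 in erythroid-like, 0.10 in fibroblast-like and -0.15 in oligodendrocyte-like cells (Hmgcs1 -0.30, Fdps -0.29). No upper limit on genes gave -0.058 in OPC-like, -0.46 in endothelial-like, -0.42 in ependymal-like, 0.12 in mural-like and -0.21 in oligodendrocyte-like cells (Hmgcs1 -0.31, Fdps -0.33, Cyp51 -0.15). Resolution 0.5 gave -0.062 in OPC-like cells. Resolution 2 gave -0.064 in OPC-like, -0.38 in erythroid-like and 0.23 in oligodendrocyte-like cells. Cells with at least 5000 UMIs gave -0.41 in fibroblast-like and 0.35 in oligodendrocyte-like cells. Equal weight per cell gave 0.051 in Schwann cell-like (Hmgcs1 0.094, Cyp51 0.037), 0.32 in fibroblast-like and 0.067 in oligodendrocyte-like cells (Hmgcs1 -0.075, Fdps -0.078). Totals without haemoglobin and mitochondrial genes gave -0.069 in OPC-like and 0.18 in oligodendrocyte-like cells. Centring on the median gene gave -0.32 in astrocyte-like cells. Chosen after seeing the data, the low-depth oligodendrocyte-like cluster alone gave -0.22 (Hmgcs1 -0.47, Fdps -0.11, Cyp51 -0.092), and the fibroblast-like cluster of both libraries -0.62 (Idi1 -0.070). The share of 1 gene among the 7 was also added after seeing the data. Over clusters of 50 or more cells on both sides, the sum was lower in 28 of 32 at resolution 2, 22 of 24 without the upper limit on genes, 25 of 28 at the mitochondrial limit of 20% and 17 of 19 at resolution 0.5, and the ratio of Idi1 over the other 6 was above 0 in 31 of 32, 23 of 24, 27 of 28 and 19 of 19. Genes past the fold limit numbered 130 to 1454 per class, 19 to 723 at a limit of 2, 319 to 2466 with at least 50 UMIs and 33 to 609 with at least 300 UMIs. Thinned to 2000 UMIs, 118 of 154 shares of cells left their interval, and without thinning 153 did, as more UMIs per cell give higher shares.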
